A study of Homo sapiens with 2 samples.

Results

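The 174 genes described here are the protein-coding genes that carried 8 or more IGF2BP3 LACE-seq peak summits in each of 2 libraries from OE-19 cells. They are called multi-peak genes below. Each summit, the highest position of a peak, was assigned to the protein-coding gene whose span held it, and to the longest one where several did. The multi-peak genes made up 2.05% of the 8486 protein-coding genes with a summit in either list and 2.89% of the 6013 with a summit in both, out of 20046 genes annotated. They held 1959 of the 18662 gene summits of replicate 1 and 1936 of the 18292 of replicate 2. Because the genes were selected on these very counts, the counts are given as a description.

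OE-19 cells are an established human line of esophagogastric junction adenocarcinoma. The cells were exposed to ultraviolet light, which links proteins to the RNA they touch, and IGF2BP3 was then immunoprecipitated. LACE-seq (linear amplification of cDNA ends and sequencing) reads where reverse transcription stops on the RNA bound by the protein. There was 1 group of 2 libraries, replicate 1 and replicate 2, with no control library analysed here. The study describes its replicates as biological, and the labels do not say how they were separated. A test between them compares these libraries alone. Peak signal could therefore not be set against the RNA level of each gene, and a gene with many peaks may be bound more densely, be more abundant or be longer. These cannot be told apart here.

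IGF2BP3 is an oncofetal RNA-binding protein of the insulin-like growth factor 2 mRNA-binding family. Its RRM and KH domains contact mRNA, and it is known for stabilising transcripts, in part as a reader of N6-methyladenosine (m6A), which is commonly deposited within GGAC and near stop codons. In carcinoma cells its mRNA targets include regulators of growth and of the cell cycle.

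Introns held 45.8% of the summits of multi-peak genes in replicate 1 and 47.3% in replicate 2, and most of those summits lay within 150 nt before an exon. One such boundary is shown for each of 7 of the 12 genes with the most summits. Each line covers 20 intron bases in lower case and the first 10 exon bases in capitals, in the direction of the gene, from the hg38 genome. The site shown is that of a single-copy intronic summit of replicate 1 just before an exon of the canonical transcript. Of such sites, it had the most reads at the summit in the weaker of the 2 libraries. The peak was found in both libraries, and in LRP5 the replicate 2 summit lay in CDS.
DST: tcaaaatatggtcttcttagGCCTTCCAAA
EIF4G3: gtgttgttttgtcttttaagTCGTGGAAGT
HUWE1: tccatcattcctaaccctagTGCTACAGCC
NCOR1: gatttattttcttcctatagGTATCCTGCA
LRP5: tctgtgtgtgtccctttcagGCCCTACATC
HSPG2: ctcccccttgccacccacagGTGTGAATGT
PTPRN2: ttcctccccctgtcctgcagGAGCTGTGCC

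These windows lie at chr6:56482868-56482897 (minus strand) for DST, chr1:20851469-20851498 (minus) for EIF4G3, chrX:53539071-53539100 (minus) for HUWE1 and chr17:16092049-16092078 (minus) for NCOR1. The others lie at chr11:68448789-68448818 (plus) for LRP5, chr1:21881493-21881522 (minus) for HSPG2 and chr7:157656542-157656571 (minus) for PTPRN2. All 7 open onto coding exons. In replicate 1 the intronic summit lay 5 nt before the exon in LRP5, 33 nt in HUWE1, 34 nt in EIF4G3 and 80 nt in DST. In EIF4G3 the peak over this boundary reached exon 28 of 37, with a pileup (the number of reads stacked at the summit) of 53 in replicate 1 and 49 in replicate 2. In HUWE1 it reached exon 76 of 84, with pileups of 100 and 88. The PTPRN2 boundary had pileups of only 8 and 16, and the tallest shared intronic peak of that gene, with 142 and 121, reached no exon.

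A multi-peak gene had 8 to 30 summits in replicate 1 and 8 to 25 in replicate 2, and the median was 10 in both. Over all genes with a summit in the same list the median was 2. PRKDC, the catalytic subunit of DNA-dependent protein kinase, had the most summits in replicate 1 (30) but 19 in replicate 2, fewer than DST with 24. The 2 libraries thus did not order the genes in the same way at the top. Across the 174 genes, Spearman's rho between the 2 counts was 0.479, a description over a range that the selection cut, against 0.601 over all 8486 genes. In all, 70 genes had more summits in replicate 1, 69 had more in replicate 2 and 35 had equal counts.

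**Figure D1:**
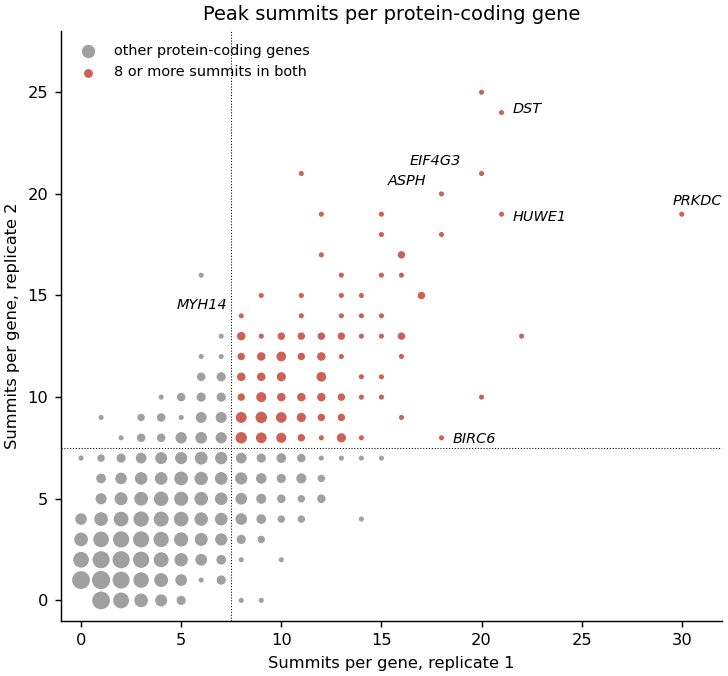
Summits per protein-coding gene in replicate 1 (horizontal axis) and replicate 2 (vertical axis). Each circle is a pair of counts, its size grows with the number of genes there, and the dotted lines mark the selection at 8. The 174 selected genes (red) fill the upper right, with PRKDC at 30 and 19 and BIRC6 at 18 and 8.

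The threshold cut through a continuous distribution. There were 55 genes whose lower count was 8 and 75 whose lower count was 7. Just inside were BIRC6, an inhibitor of apoptosis with ubiquitin-conjugating activity, with 18 summits in replicate 1 and 8 in replicate 2, and MYH14 with 8 and 14. Just outside were SYNE2 with 15 and 7, NRCAM with 14 and 7, and ARHGEF11 with 7 and 13. With 8 or more summits in replicate 1 alone 298 genes were found, of which 58.4% also had 8 in replicate 2. With 8 or more in replicate 2 alone 267 genes were found, of which 65.2% also had 8 in replicate 1.

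The genes with the highest lower counts encode proteins of several kinds, with a canonical CDS between 2274 nt (ASPH) and 23454 nt (DST). DST (dystonin), a plakin that links cytoskeletal filaments, had 21 summits in replicate 1 and 24 in replicate 2. In both libraries all of its summits lay beyond the first 261 kb of a span of 497 kb. EIF4G3, a scaffold of the translation initiation complex, had 20 and 21 summits. Of these, 19 of its replicate 1 peaks and 18 of its replicate 2 peaks overlapped a peak of the other list. HUWE1, a giant HECT-type ubiquitin ligase, had 21 and 19 summits. ASPH, an aspartate β-hydroxylase of the endoplasmic reticulum, had 18 and 20, of which 6 in each library lay in a 3′ UTR of any transcript. Several of these lay far from the end of the gene, such as at 88.4 and 89.3 kb of 214 kb in both libraries. NCOR1, a nuclear receptor corepressor, had 18 summits in each library and 16 of them overlapped in each.

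LRP5, a Wnt co-receptor, had 16 summits in replicate 1 and 17 in replicate 2 although its exons cover 6.18 kb. MYCBP2, a ubiquitin ligase that binds MYC, had 16 and 17. KMT2C, a histone H3 lysine methyltransferase, had 16 in each, of which 10 and 11 lay in CDS. HSPG2, which encodes the basement membrane proteoglycan perlecan, had 15 and 19, with 11 and 13 in CDS. PTPRN2, a receptor-type phosphatase-like protein of secretory granules, had 15 and 18 summits over a span of 1049 kb. PTPRN2 differed from the others in that 9 of its replicate 1 peaks and 8 of its replicate 2 peaks reached no exon.

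**Figure D2:**
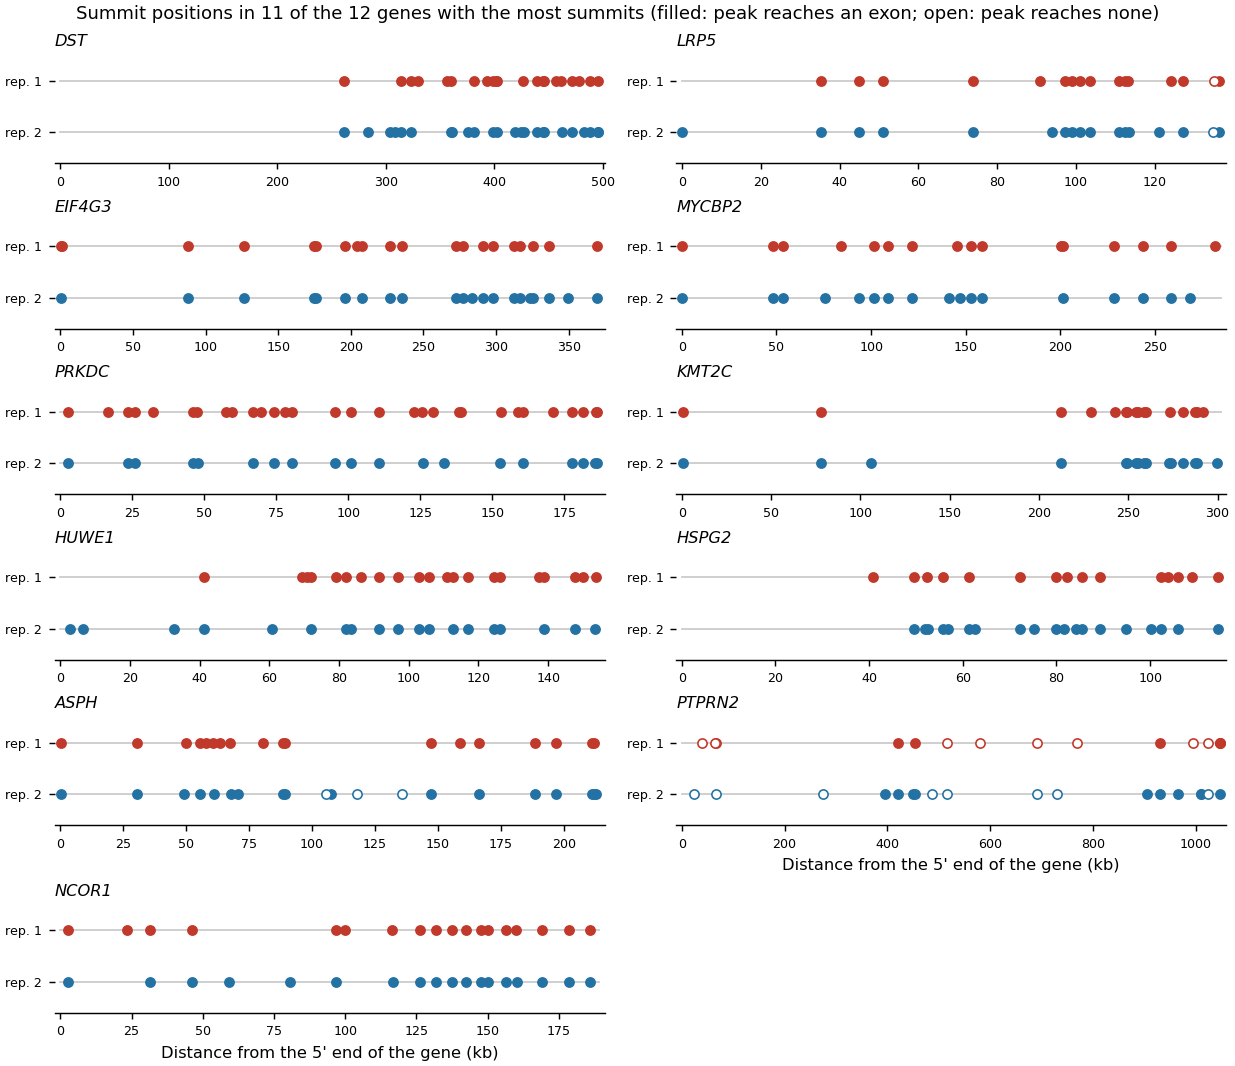
Summit positions in 11 of the 12 multi-peak genes with the highest lower counts, as distance from the 5′ end of the gene in kb, replicate 1 above and replicate 2 below in each panel. Filled circles are summits of peaks that reach an exon and open circles those of peaks that reach none. Most positions recur in both libraries, DST has none in its first 261 kb, and PTPRN2 has 9 and 8 open circles.

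Grouped by function, large ubiquitin ligases and deubiquitinases held the most multi-peak genes for their number. Of 23 such genes with a summit in either list, 10 were multi-peak genes (43.5%, against 2.05% of all genes with a summit). The median over the 23 was 8 summits in replicate 1 and 7 in replicate 2, against 1 and 1 over all 8486 genes. Beside HUWE1 and MYCBP2 they included USP34, a deubiquitinase, with 22 and 13 summits, and UBR4, a ligase of the N-degron pathway, with 16 and 13. The lists were drawn up with earlier results of these data known and their genes are long, so the shares are descriptions.

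Of 42 chromatin remodellers, histone methyltransferases and coactivators with a summit, 13 were multi-peak genes, and the median was 7 and 5 summits. Beside NCOR1 and KMT2C they included ASH1L, a histone methyltransferase, with 15 and 11 summits. The acetyltransferase paralogues CREBBP and EP300 had 12 and 9, and 8 and 8. Of 38 receptors, adhesion molecules and basement membrane proteins with a summit, 6 were multi-peak genes (15.8%): LRP5, HSPG2, the atypical cadherin FAT1 (17 and 15 summits), the insulin receptor INSR (12 and 12), the junction protein plakoglobin JUP (10 and 12) and the receptor tyrosine kinase ERBB2 (11 and 10).

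Of 22 myosin, dynein and kinesin genes with a summit, 5 were multi-peak genes (22.7%, against 2.05% of all genes with a summit). All 5 encode myosin heavy chains. These were MYO18A (11 and 14 summits), MYH9 (12 and 11), MYO5B (9 and 13), MYO10 (9 and 9) and MYH14. The plakin, spectrin and filamin list held 3 of 22 (13.6%), among them DST and the β-spectrin SPTBN1 (15 and 16). Aminoacyl-tRNA synthetases held 2 of 19 (10.5%), IARS1 (16 and 13) and EPRS1 (9 and 9). Nuclear pore genes also held 2, of 24 (8.33%), NUP98 (13 and 12) and NUP153 (13 and 8).

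For the remaining lists the count was 0 or 1, which in lists of this size is near the 2.05% of all genes with a summit, so nothing is read from it. The count was 0 among 31 splicing and nuclear speckle genes with a summit, 22 chaperones, 15 cytosolic ribosomal protein genes, 13 lipid synthesis genes, 8 actin and tubulin genes, 7 IGF2BP family members and textbook targets, and 4 keratins. It was 1 of 24 for translation factors (EIF4G3), 1 of 33 for DNA repair, replication and mitosis genes (PRKDC) and 1 of 13 for writers, erasers and readers of m6A. The last was ZC3H13, a subunit of the writer complex, with 8 and 8 summits. In all, 44 of the 174 genes were in one of the 18 lists and 130 in none.

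Some genes below the threshold had tall peaks, of which EEF2 and PABPC1 are named after their pileups were seen. EEF2, the translocase of the elongating ribosome, had 5 summits in each library with a median pileup of 142 in both. PABPC1, the cytoplasmic poly(A)-binding protein, had 7 and 6 summits with median pileups of 136 and 140.5. Both exceeded the median summit pileup of the multi-peak genes, which was 30 in replicate 1 and 28 in replicate 2.

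In multi-peak genes the summits were spread over CDS and introns more than over UTRs. CDS held 34.4% of their summits in replicate 1 (Wilson 95% interval 32.3 to 36.5) and 32.3% in replicate 2, against 31.5% and 32.8% in other genes. The 3′ UTR held 11.6% and 10.5%, against 25.1% and 20.5% in other genes. Introns held 45.8% and 47.3%, against 32.2% and 29.2%. The shares for 3′ UTR and intron thus differed between the gene groups in the same direction in both libraries. No test was made, since many summits per gene and long genes with many introns were chosen together.

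**Figure D3:**
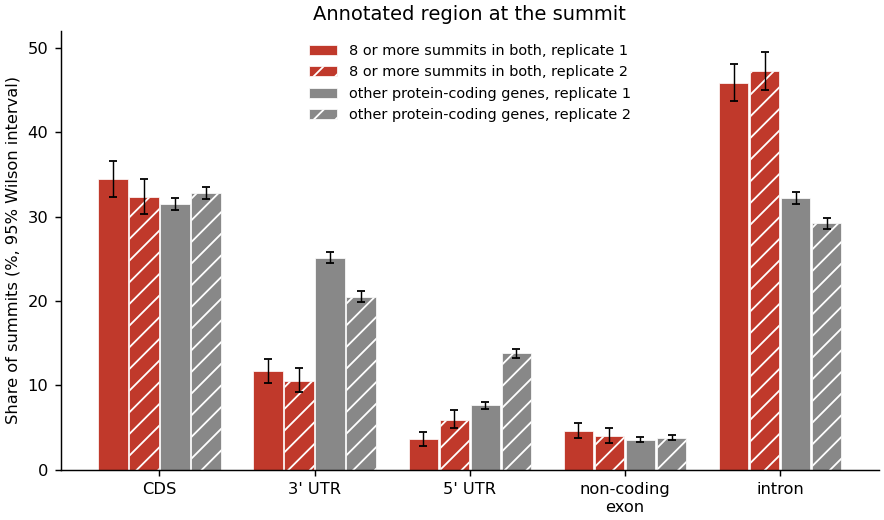
Share of summits by annotated region in multi-peak genes (red) and other protein-coding genes (grey), with replicate 2 hatched and bars showing Wilson 95% intervals of counting error. In both libraries the red bars are lower than the grey ones for the 3′ UTR (11.6% and 10.5% against 25.1% and 20.5%) and higher for introns (45.8% and 47.3% against 32.2% and 29.2%).

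Position in the gene was not used to choose the genes, so the 2 libraries could be compared on it. The 5′ UTR held 70 of 1959 summits in replicate 1 (3.57%) and 114 of 1936 in replicate 2 (5.89%). This difference passed a two-sided Fisher's exact test with Benjamini-Hochberg adjustment over 4 regions (adjusted p = 0.00264). The same exact test gave adjusted p = 0.348 for CDS, 0.379 for the 3′ UTR and 0.386 for introns. It takes peaks as independent and compares these libraries, not conditions. Other genes also had more 5′ UTR summits in replicate 2 (13.8%) than in replicate 1 (7.60%). The median GC content within 50 nt of multi-peak summits was 46.5% in replicate 1 and 49.5% in replicate 2, and its part in the difference was not tested.

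Given the exonic bases of all transcripts of the same genes, exonic summits of multi-peak genes were more often in CDS than their length predicts. Of exonic summits, the observed share in CDS over the share of exonic bases that are CDS was 1.43 in replicate 1 and 1.37 in replicate 2. For the 3′ UTR the same ratio was 0.745 and 0.698. Within 200 nt of a stop codon it was 1.61 and 1.65, and in other genes 1.77 and 1.59. The CDS ratio was 1.41 and 1.37 in other genes, so the groups were alike in it within the spread of the libraries. With 1 transcript per gene the mean CDS ratio of multi-peak genes was 1.09, so the size of the excess depends on the transcripts used.

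The intronic summits were close to exons. Of 898 intronic summits in replicate 1, 79.8% lay within 150 nt before an exon, and of 915 in replicate 2, 80.7% did. In other genes these shares were 61.7% and 62.0%. No share after exons and no expected share is given, so no preference for the side before exons is read from them. The peaks themselves were 341 nt wide in median in both libraries, and where the summit was intronic the peak still touched an exon in 84.5% and 84.9% of cases. Counting all summits of multi-peak genes, 92.9% in each library belonged to a peak that touched an exon. The deposited peaks carry no strand, so a transcript on the opposite strand could not be separated.

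The intronic summits decided how many genes were selected. With exonic summits alone, 20 genes had 8 or more in both lists. These included PRKDC (15 and 13 exonic summits), KMT2C (15 and 13), FAT1 (14 and 11), HSPG2 (12 and 15), and KMT2D (12 and 11). With all peaks that touched an exon, 146 of the 174 genes still had 8 or more in both. Among the genes with the most intronic summits were EIF4G3 (13 and 16), HUWE1 (13 and 13) and PTPRN2 (10 and 14), followed by LRP5 (13 and 10), MYCBP2 (10 and 13) and APP (11 and 12), which tied at 23 over both libraries.

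Exons with a peak recurred between libraries. The canonical transcripts of the 174 genes have 5274 exons, of which 32.9% were reached by a peak in replicate 1 and 32.7% in replicate 2. Of exons reached in replicate 1, 74.6% were reached in replicate 2, against 12.2% of those not reached in replicate 1. The selection asks for many peaks in both lists and so may fix part of this contrast. Exons reached in both libraries were also longer (median 211 nt) than those reached in neither (120 nt), so the contrast is a description. Last exons were nearly always reached (96.0% and 94.3% of 174). First exons were reached in 40.2% in replicate 1 and 64.4% in replicate 2. EIF4G3 had peaks in both libraries at 19 of its 37 canonical exons, APP at 15 of 18 and ERBB2 at 15 of 27. HSPG2 had them at 20 of 97 and PRKDC at 20 of 86.

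Long internal exons were reached more often than short ones. In replicate 1 the share reached went from 6.11% of 606 exons under 80 nt to 41.8% of 1341 exons of 160 to 249 nt and 93.0% of 57 exons of 1000 nt or more. Replicate 2 gave 6.44%, 40.9% and 87.7%. Per kb of exon, peaks were most frequent in exons of 160 to 249 nt (2.07 and 2.03) and scarcer in those under 80 nt (0.687 and 0.769) and of 1000 nt or more (0.690 and 0.659). Along the gene there was little change. With the internal exons of each gene divided from 5′ to 3′ into 5 equal classes by order, between 28.5% and 32.3% of internal exons were reached in replicate 1 and between 26.6% and 31.7% in replicate 2.

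**Figure D4:**
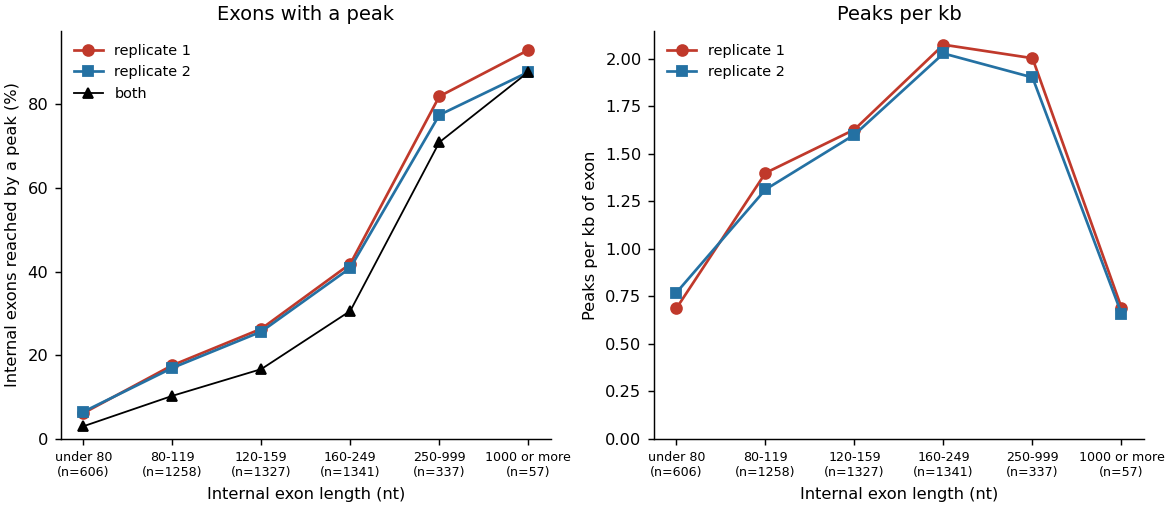
Internal exons of multi-peak genes by length (horizontal axis, nt, with the number of exons). The left panel gives the share reached by a peak in percent, the right panel the peaks per kb of exon, for each library. The share rises from 6.11% to 93.0% in replicate 1 while peaks per kb are highest at 160 to 249 nt, 2.07 in replicate 1 and 2.03 in replicate 2.

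Peaks of multi-peak genes overlapped between libraries more often than those of other genes. Of replicate 1 peaks 71.9% (Wilson 95% interval 69.9 to 73.9) overlapped a replicate 2 peak by at least 1 bp, and of replicate 2 peaks 73.6% (71.5 to 75.5) overlapped a replicate 1 peak. Over all protein-coding genes the shares were 60.3% and 61.9%, and over the other genes 58.9% and 60.5%. The selection asks for many peaks in both lists and so fixes part of this difference. Among weak peaks with a pileup of at most 14, the share was 49.8% and 52.5% in multi-peak genes against 38.1% and 39.7% in others. Among those of 37 or more, it was 85.2% and 86.8% against 81.6% and 82.4%. Over 1405 overlapping pairs in the same gene the summits lay a median of 29 nt apart, and Spearman's rho across pairs was 0.754 for pileup and 0.718 for fold enrichment.

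The peaks were also somewhat taller. The median pileup was 30 and 28 in multi-peak genes against 23 and 22 in others. The local background, the reads predicted there by the peak caller, was 2.87 and 2.38 against 2.17 and 1.91. Fold enrichment over this background was 7.13 and 7.53 against 6.81 and 7.04. Pileup and background were both larger in multi-peak genes, and the fold differed by less than either.

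Genes differed widely in signal. APP, the amyloid precursor protein, had the highest median fold enrichment in both libraries, 14.7 over 17 summits and 14.4 over 15. Its median pileup was 56 and 39 over a background of 2.55 and 1.53. MUC5B, a gel-forming mucin, was at the other end, with the highest median pileup (240.5 and 222) and the lowest median fold (2.26 and 2.21). Its background was 108 and 92.0, and 6 of its 8 summits in replicate 1 and 9 of 13 in replicate 2 lay in a single exon. In each library 5 of its summits lay in multi-copy sequence, so these values are uncertain. JUP, with median pileups of 136.5 and 156, ERBB2, with 114 and 128.5, and KMT2D, with 104.5 and 115, also combined a tall pileup with a fold between 3.13 and 4.21. ERBB2 is known to be amplified in OE-19, and gene copy number was not measured here.

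**Figure D5:**
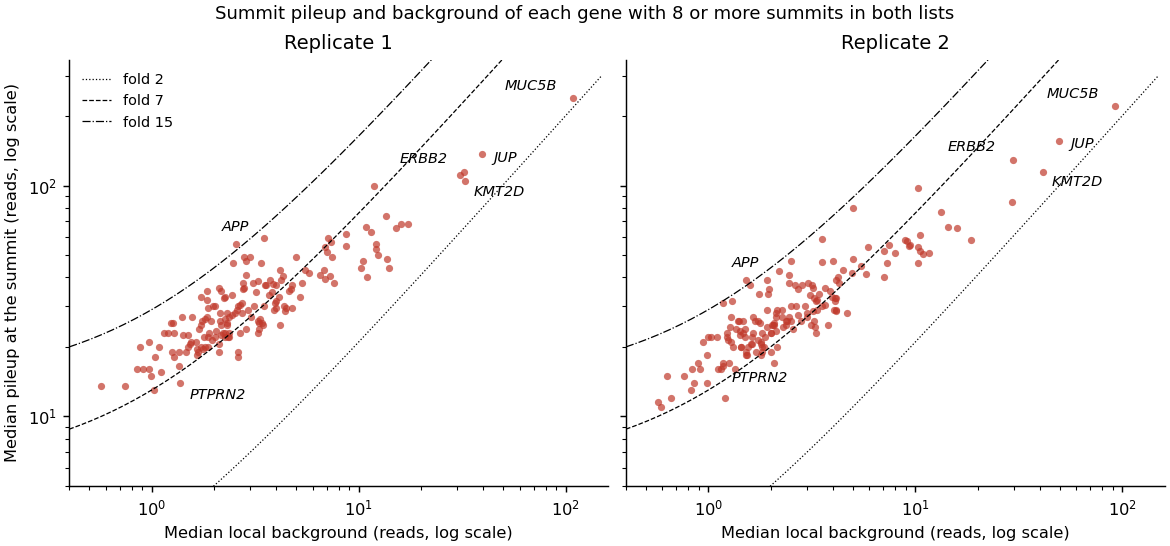
Median summit pileup (vertical axis, reads, log scale) against median local background (horizontal axis, reads, log scale) of each multi-peak gene, 1 panel per library, with lines of equal fold enrichment at 2, 7 and 15. APP lies at the line of 15, most genes lie near 7, and MUC5B lies near 2 with a background of 108 in replicate 1.

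The GGAC core of the m6A consensus was searched within 50 nt on either side of the summits, on the strand of the gene. It was present in 25.1% of multi-peak windows in replicate 1 and in 26.5% in replicate 2. At all positions of the same region class in the same genes the share was 24.7% and 25.4%, so the ratios were 1.014 and 1.044. In other genes the summit windows held GGAC in 29.3% and 32.1%, with ratios of 1.10 and 1.09. The longer TGGAC, which contains GGAC, gave 0.935 and 0.997 in multi-peak genes and 1.13 and 1.07 in other genes. ACACA gave 1.13 and 1.02, against 1.23 and 1.02 in other genes. AAAAA gave 0.724 and 0.730, against 0.719 and 0.618. A match is a description of the letters in the window and no evidence of methylation or contact.

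To show the sequence context, the GGAC nearest the replicate 1 summit is printed for 4 of the 12 leading genes. It comes from the strongest shared peak with a GGAC whose replicate 1 summit lay in CDS. GGAC is in capitals with 10 bases on each side, from hg38.
DST: gtacagcaaaGGACgcatactgac
HUWE1: ctcaggaagaGGACagcagtggca
LRP5: ggatctcgctGGACacgccggact
HSPG2: atcaacatccGGACctctgtgcag

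These lie at chr6:56640528-56640551 (minus strand) for DST, chrX:53562179-53562202 (minus) for HUWE1, chr11:68386361-68386384 (plus) for LRP5 and chr1:21834905-21834928 (minus) for HSPG2. In LRP5 the replicate 1 summit lay in this window, with a pileup of 52 and a fold of 11.7. The summit of the overlapping replicate 2 peak lay outside the window, with a pileup of 53 and a fold of 11.8. The replicate 2 summits of DST, HUWE1 and HSPG2 also lay outside their windows. That of HUWE1 lay in an intron and that of HSPG2 in an exon of a non-coding transcript.

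Multi-peak genes were long. Their median span was 159 kb against 44.5 kb for the other genes with a summit in both lists. They had 25 against 10 exons and a CDS of 3987 against 1503 nt in the canonical transcript. Over the 6013 genes with a summit in both lists, the lower count correlated with span (Spearman's rho 0.325), exonic length (0.309) and median pileup (0.275), as a description across genes. Among genes whose exons covered at least 11.8 kb, the median of the multi-peak genes, the share of multi-peak genes was 1.69% at a span under 50 kb, 3.41% at 50 to 100 kb, 12.8% at 100 to 200 kb and 17.4% above. Over the same span classes the median pileup went from 32 to 20 and the background from 3.67 to 1.44.

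Per kb of exonic length, multi-peak genes carried between 0.274 and 5.40 summits in replicate 1, with a median of 0.926. The highest value was that of ENSG00000255872, a gene with no symbol in the annotation, at 5.40 and 5.02. It was followed by PTPRN2 (3.09 and 3.70), ENSG00000141979 (3.12 and 3.51), the intestinal cadherin CDH17 (3.09 and 2.58) and LRP5 (2.59 and 2.75). Both genes without a symbol have spans that hold other protein-coding genes. ENSG00000141979 had summits in exons of CHERP (6 over both libraries) and SLC35E1 (4), and ENSG00000255872 in exons of SHB (4) and SLC25A51 (3). Where such a summit was given to the gene with an exon there, ENSG00000141979 had 3 and 2 summits left and ENSG00000255872 had 10 and 7.

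In 5 genes 50% or more of the peaks reached no exon in both libraries. These were ENSG00000255872, ENSG00000141979, PDXDC1 (10 of 12 and 10 of 13 peaks), NALF1 (8 of 11 and 12 of 15) and ARAP1 (4 of 8 and 5 of 9). At the other end, every peak of 100 of the 174 genes reached an exon in both lists. All 13 summits of NOMO2 in each library lay where the 31 bases around the summit occur more than once in the genome, as did 7 of 12 and 7 of 13 in PDXDC1. The same held for 5 of 8 and 5 of 13 summits of MUC5B, which kept 3 and 8 single-copy summits. Reads there could come from another copy, so the values of these 3 genes are uncertain. Over all multi-peak genes, 96.3% and 96.4% of summits lay in single-copy sequence.

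Of the 8 G1-S genes that the study followed, 5 had a summit and 0 were multi-peak genes, which at an overall share of 2.05% says nothing about them. CDC25A, a phosphatase that activates cyclin-dependent kinases, had 1 summit in each library. E2F1 had 2 and 1, and CDK4, CHEK2 and WEE1 had 1 in replicate 1 and 0 in replicate 2. CCNE2, CDC6 and E2F3 had none in either list. MYC had 3 and 3 and CCND1, cyclin D1, 3 and 4 by this rule, all under the selection. CDK6, a G1 kinase that binds cyclin D1, was a multi-peak gene with 10 and 11 summits, of which 5 in each library lay in the 3′ UTR, and it was singled out after its values were seen.

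The epithelial identity of the line was checked on its markers, most of which had a summit. CDH1 had 7 in each library, KRT8 4 and 5, KRT19 3 and 3, EPCAM 5 and 2, KRT18 1 and 1 and CLDN7 0 and 1. For KRT8, 2 of the 4 and 4 of the 5 summits lay in multi-copy sequence, so its values are uncertain. Among other epithelial genes in the lists, KRT80 had 2 and 2, and KRT7, KRT20 and CTNND1 had none. Of 9 markers of leukocytes, fibroblasts, endothelium and muscle, PTPRC had 1 summit in replicate 1, COL1A1 had 1 in replicate 2, and the others had none.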

How the data were processed

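IGF2BP3 LACE-seq was analysed from 2 deposited peak lists of OE-19 cells (21142 and 20799 peaks, hg38). Per the labels, the authors' processing notes name fastp, HISAT2 and MACS2, with no versions, while the methods name Bowtie and Piranha for this assay. The column layout and values are those of MACS-type lists, called per library. The authors deposited the fold enrichment as a ratio and p- and q-values as −log10 values. Read depth was not given in the sources used here. Pileup and background were recovered for all 41941 peaks from fold = (pileup + 1)/(background + 1) and the Poisson tail, within 0.01 of the deposited −log10 p. Summits were placed on GENCODE release 44 by the region order CDS, 3′ UTR, 5′ UTR, non-coding exon, intron over all transcripts, and 31-mer copies were counted in the genome.

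Python 3.11.15, pandas 2.3.3, scipy 1.17.1 and pysam 0.24.0 were used, after a test on simulated data. Groups came from the labels. The members and gene lists were chosen with earlier results of these data known. Named genes were the 12 with the highest lower count, the 5 densest per exonic kb, the 5 with most intronic summits, up to 4 per list, 3 on either side of the threshold and the study's cell cycle genes. Other genes named were picked after their values were seen. Wilson 95% intervals cover counting error only. Alternatives changed the threshold, gene assignment, q-value, copies, position, overlap, transcripts, distances and windows, and left out each replicate. Some genes that met the naming rule, and sequences of others, are not reported here.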

Additional observations from a re-analysis of the deposited data

How the results depend on the processing

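The number of multi-peak genes was 410 at 6 summits, 76 at 10, 20 with exonic summits only, and between 267 and 298 with 1 replicate left out, against 174. With an exon placed before an intron 167 genes remained, with a −log10 q of at least 5 172 remained, with single-copy summits 157, and by peak midpoint all 174 with 1 more. The mean overlap of 72.7% was 45.9% when summits had to lie within 50 bp. The CDS ratio of 1.40 was 1.26 by peak midpoint and 1.09 with 1 transcript per gene. The stop codon ratio of 1.63 was 1.53 at 6 summits, 1.49 at 10, 1.59 by midpoint, 2.14 with 1 transcript per gene and 1.52 within 400 nt. The GGAC ratio of 1.03 was 1.08 at 6 summits, 0.993 (turned) at 10, 1.00 in narrower and 1.10 in wider windows (25 and 100 nt on either side of the summit), so no direction is drawn from it. The ratio of median pileups to other genes, 1.29, was 1.34 at 6 summits, 1.38 at 10 and 1.26 at a −log10 q of at least 5. That of folds, 1.06, was 1.03 and 1.04 at 6 and 10 summits. The causes were not tested. The other 36 values moved by less than the spread of the replicates or kept their call, and the 5′ UTR difference by Fisher's exact test kept its call by midpoint (adjusted p = 0.00154) and in single-copy sequence (adjusted p = 0.00257). No paired analysis was possible because there was 1 group. With 2 libraries, no input control and no strand, depth and transcript abundance could not be set apart from binding.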
